A study of Mus musculus with 48 samples.

Results

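Genes whose H3K27me3 differed between mature beta cells and the definitive endoderm of the embryo are described here. Mature beta cells were sorted as red-fluorescent cells from 8-week-old mice with an insulin reporter (Ins-RFP). Definitive endoderm was sorted as ENDM1+ cells at e8.25 of embryonic development, when the gut tube forms. Both were set beside hepatocytes of 8-week-old mice from the same table as a further level. Per the labels, the cells came from B6C3F1 females bred to C3H, Pdx1-eGFP or Ins-RFP males, and the sex of the sorted cells is not given in the labels used here. H3K27me3 was precipitated with a Millipore antibody, using 2 ChIP and 2 input libraries per cell type, 12 of the 48 libraries of the series. The series follows repressive histone marks along liver and pancreas development, with the endoderm as a baseline for some comparisons. All 23177 of the 24466 genes of the deposited table that are not microRNA, snoRNA or scaRNA genes were used.

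H3K27me3 is trimethylation of lysine 27 on histone H3, placed by the EZH1 or EZH2 subunit of Polycomb repressive complex 2 and read by Polycomb repressive complex 1. It lies over silent genes, mainly developmental regulators with CpG-rich promoters, and is diluted or removed where such a gene is switched on. Beta cells are islet cells that sense glucose and secrete insulin. They express a set of homeobox factors that are silent in early endoderm, and they keep certain widely expressed enzymes silent, known as disallowed genes.

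Each value is 1 ratio of ChIP to input per gene and cell type, quantile-normalized by the authors, so every column has a median ratio of 0.711, an upper quartile of 1.27 and a 95th percentile of 3.18. A ratio therefore gives the position of a gene among the others of that cell type, and total H3K27me3 cannot be compared. There is 1 pooled value per cell type, so no value has a replicate error and no difference could be tested; read depth is unknown. Less mark in every cell and a mark lost from only some of the cells cannot be told apart in pooled ratios. Genes were compared by log2(ratio + 0.0711), beta cells minus endoderm, and by their rank percentile within each column. A gene is called moved, higher or lower, where it differed by at least 1 log2 unit and by at least 25 rank points in the same direction. The rank condition is needed because the upper tail is steep: among the genes compared, ratios ran up to 77.2 in beta cells and 317 in endoderm. Hoxa7, for example, had ratios of 7.24 in beta cells and 128 in endoderm, while its rank percentiles were 98.9 and 99.8.

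In beta cells 2704 genes were higher than in endoderm, 11.7% of those compared, and 2934 were lower, 12.7%. The remaining 17539 did not move. The plot of rank percentiles shows the moved groups on either side of the diagonal of a broad cloud. Lower genes came mostly from the top of the endoderm column: 1903 of the genes in the highest endoderm quartile, 33.1%, were lower in beta cells. Higher genes came mostly from its bottom, with 1563 of the lowest endoderm quartile, 29.0%. The rank condition sets part of this in advance. No gene of the lowest endoderm quartile can fall by 25 points, and none of the highest can rise by 25. The share of a gene list that moved therefore also depends on where its members lay in endoderm. Of the highest endoderm quartile, 50.3% was also in the highest quartile of beta cells. Among the most strongly marked 5% of rows in each column, beta cells had 1036 genes and endoderm 1117, and 537 were in both. These are 51.8% of the beta cell set and 48.1% of the endoderm set. In beta cells 276 of the endoderm set, 24.7%, were lower, with a median beta cell ratio of 0.46. Chrna4, just inside the threshold of lower genes, differed by -25.02 rank points and Vmn1r2, just outside it, by -24.99. On the side of higher genes Sox15 lay just inside with a log2 difference of 1.0003, and Col1a2 just outside with 0.998.

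**Figure D1:**
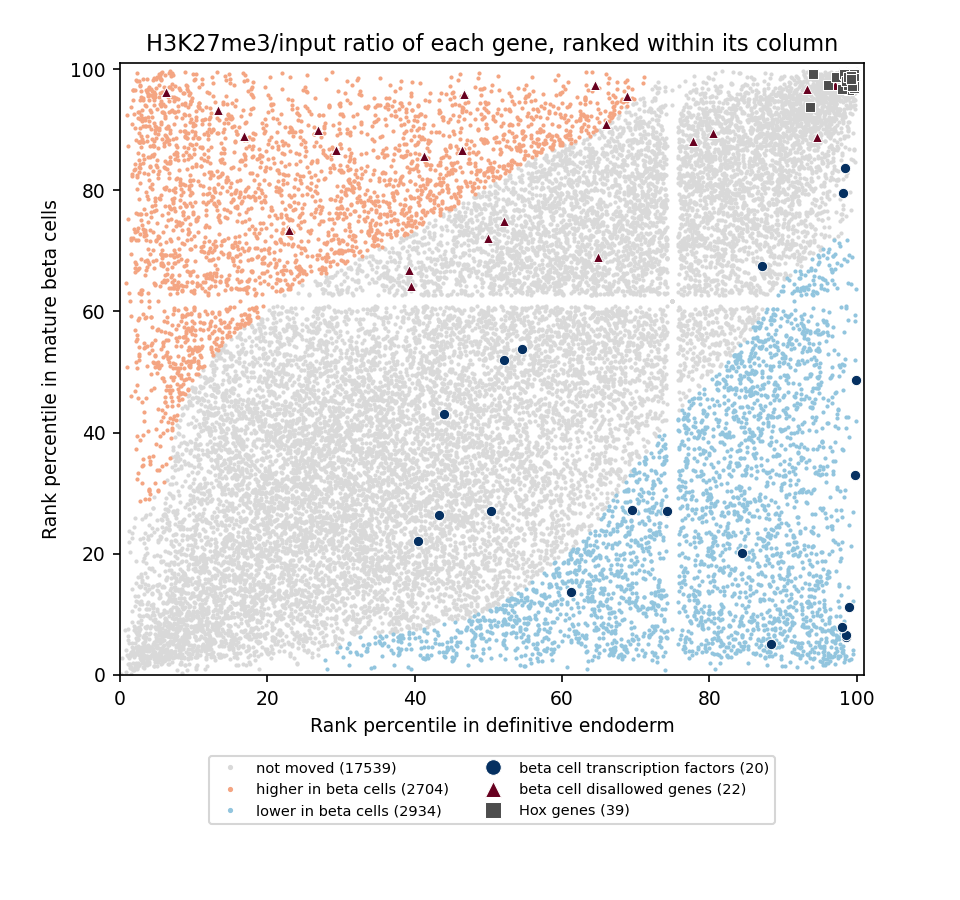
Rank percentile of each of the 23177 genes in mature beta cells (vertical axis) and in definitive endoderm (horizontal axis), where 100 is the highest H3K27me3/input ratio of a column. Of the beta cell transcription factors, 11 of 20 were lower and lie well below the diagonal. Of the disallowed genes, 11 of 22 were higher and lie well above it, and all 39 Hox genes lie in the upper right. The blank bands are the shared ranks of the recurring values, which few of the plotted genes have.

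The balance of both directions depends on the scale. In beta cells 1 ratio, 0.932, recurs at 430 rows of the table and in endoderm 1 ratio, 1.27, at 346 rows, nearly all of them small RNA genes left out here. Only 15 and 12 of the genes compared have these values. Dividing each column by its recurring value moved the median log2 difference of all genes to 0.39, from -0.00, and gave 3847 higher and 1885 lower genes, so that 67.1% of the moved genes were higher, against 48.0% on the deposited scale. Differences below are given on the deposited scale. On the divided scale fewer listed genes were lower, among them 56 in place of 79 X-linked genes, 12 in place of 14 stimulus coupling genes and 8 in place of 10 neuronal effector genes. Lower hepatocyte function genes then numbered 0 in place of 2.

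Genes of the X chromosome moved mostly in 1 direction. Among 110 listed X-linked genes, 79 were lower and 0 higher, against 12.7% and 11.7% of all genes, with median ratios of 0.57 in beta cells, 1.79 in endoderm and 1.88 in hepatocytes. In endoderm 94 of the 110 lay in the upper quartile, where 33.1% of all genes were lower and none could be higher. In the gene order of the RefSeq annotation, 928 genes lie between the first and last listed gene, and 461 of these, 49.7%, were lower and 21 higher. Leaving out the listed genes, it was 382 of 818, 46.7%. Outside this stretch 2473 of 22249 genes were lower, 11.1%, and 2683 higher, 12.1%. The stretch thus holds 15.7% of all lower genes, and counts without it are given below where a list holds such genes. Among the listed genes, Dkc1, part of the telomerase complex, had 0.270 in beta cells, 1.88 in endoderm and 1.73 in hepatocytes. Sox3, a neural factor, did not move, with 5.90 in beta cells and 52.4 in endoderm. The part of cell sex in this difference was not tested.

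The promoters of 5 genes stand for the patterns that follow: Pdx1 and Nkx6-1 were lower in beta cells, Neurog3 had a high ratio in both cell types, Hk2 was higher in beta cells, and Ins1 is an insulin gene that was higher. Each line gives the 250 bases before the annotated start in RefSeq, build GRCm38.p6, 5′ to 3′ on the strand of the gene, with every CG dinucleotide in capitals. The positions are chr5:147269847-147270096 on the plus strand for Pdx1, chr5:101664712-101664961 on the minus strand for Nkx6-1 and chr10:62132840-62133089 on the plus strand for Neurog3. Those of Hk2 are chr6:82774455-82774704 on the minus strand, and those of Ins1 chr19:52264047-52264296 on the plus strand. The ratios were made on build mm9, so these windows show the sequence of the promoters and not the measured region.
Pdx1: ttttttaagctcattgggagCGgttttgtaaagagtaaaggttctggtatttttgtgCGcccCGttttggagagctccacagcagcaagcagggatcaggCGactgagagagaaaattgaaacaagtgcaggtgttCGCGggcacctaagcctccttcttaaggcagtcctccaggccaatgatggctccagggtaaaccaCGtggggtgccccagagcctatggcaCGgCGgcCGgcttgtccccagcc
Nkx6-1: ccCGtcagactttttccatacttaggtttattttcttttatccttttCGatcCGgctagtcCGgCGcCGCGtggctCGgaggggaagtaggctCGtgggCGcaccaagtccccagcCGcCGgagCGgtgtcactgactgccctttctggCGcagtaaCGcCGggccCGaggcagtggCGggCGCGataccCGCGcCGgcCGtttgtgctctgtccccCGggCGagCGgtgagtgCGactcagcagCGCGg
Neurog3: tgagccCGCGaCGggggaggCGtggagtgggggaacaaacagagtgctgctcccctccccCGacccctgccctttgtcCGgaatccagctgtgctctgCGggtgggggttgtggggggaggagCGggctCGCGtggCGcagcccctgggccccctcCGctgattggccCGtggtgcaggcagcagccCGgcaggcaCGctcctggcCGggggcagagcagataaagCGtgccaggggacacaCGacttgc
Hk2: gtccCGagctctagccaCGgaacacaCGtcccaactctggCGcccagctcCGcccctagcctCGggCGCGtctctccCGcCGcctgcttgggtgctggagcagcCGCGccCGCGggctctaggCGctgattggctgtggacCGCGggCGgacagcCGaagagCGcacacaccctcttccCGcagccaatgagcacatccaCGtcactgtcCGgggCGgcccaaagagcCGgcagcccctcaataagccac
Ins1: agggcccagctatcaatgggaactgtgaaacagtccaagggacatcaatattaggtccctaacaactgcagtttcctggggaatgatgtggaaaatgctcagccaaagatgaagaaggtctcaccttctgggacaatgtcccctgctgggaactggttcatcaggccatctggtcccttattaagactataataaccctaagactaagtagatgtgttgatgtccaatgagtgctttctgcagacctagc

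The windows hold 10 CG dinucleotides in Pdx1, 30 in Nkx6-1, 18 in Neurog3 and 25 in Hk2, while Ins1 holds 0. CG reads the same on both strands. CpG content was taken as the observed over the expected number of CG in the whole RefSeq window, 250 bases before to 50 after the start, averaged over the windows of a gene. The median over 32851 promoters was 0.38, and 35.8% reached 0.6. These are promoters and not the genes compared, while list values are per gene, so the units differ. Of the genes that were higher and lower, 77.6% each had a promoter in the table, under the 80% needed, so the check over all moved genes is void. For gene lists with enough promoters, beta cell transcription factors had a median of 0.78, with 11 of 16 at 0.6 or more, and granins and processing genes 0.75, with 9 of 13. Disallowed genes had a median of 0.64 and 10 of 19 at 0.6 or more. Islet hormones (0.23) and acinar genes (0.20) lay below the median of all promoters. Fetal growth genes, of which 5 were higher, had 0.70, and germline genes, mostly not moved, 0.67 with 8 of 13 at 0.6 or more. Hepatic transcription factors had 0.59 with 8 of 16, and X-linked genes 0.68 with 51 of 88.

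**Figure D2:**
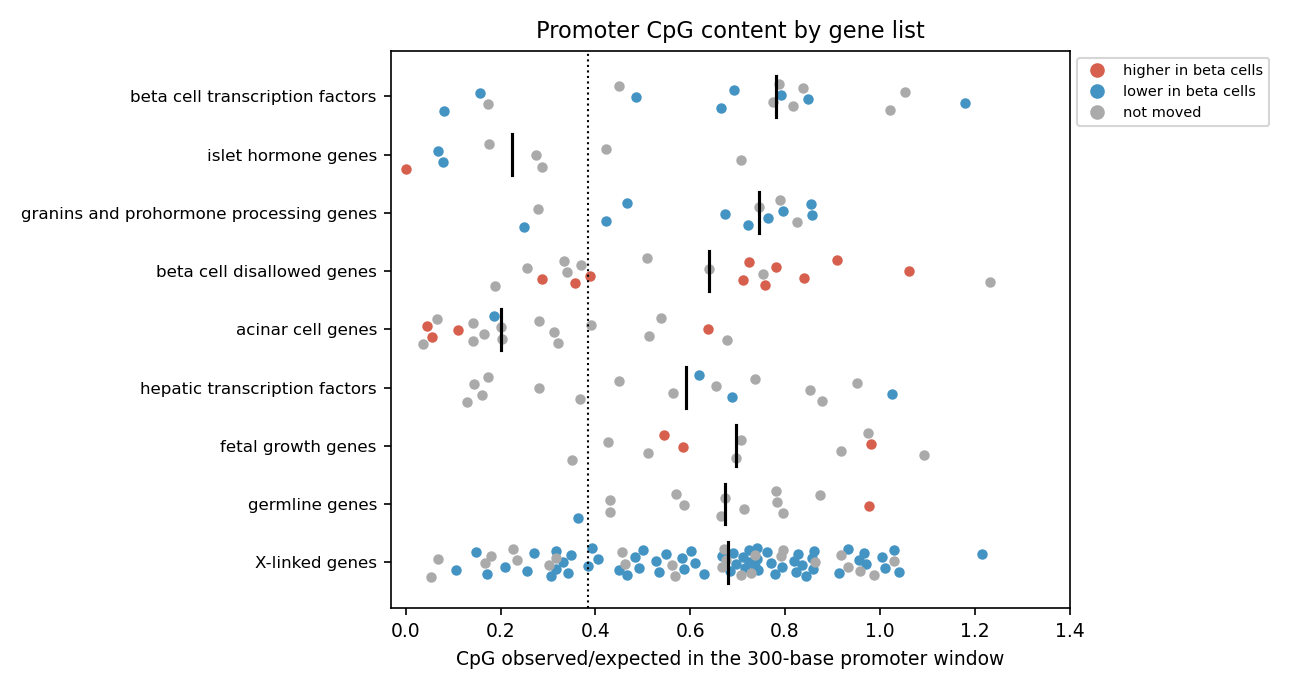
CpG observed/expected of the promoter window (horizontal axis, ratio) for the members of 9 gene lists with a promoter for at least 80% of genes. Each point is a gene coloured by its direction in beta cells against endoderm, the vertical bar is the list median and the dotted line the median of all promoters, 0.38. Islet hormone and acinar medians, 0.23 and 0.20, lie left of the dotted line.

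Transcription factors that define beta cells carried less H3K27me3 in beta cells. Of 20 factors, 11 were lower and 0 higher, where 12.7% and 11.7% of all genes were, and the median log2 difference was -1.56, against -0.00 over all genes. In endoderm 11 of the 20 lay in the upper quartile, where 33.1% of all genes were lower and none could be higher. The core regulators among the 20 factors had a median ratio of 0.52 in beta cells and 6.18 in endoderm. Pdx1, required for pancreas formation and insulin transcription, had ratios of 0.217 in beta cells, 6.39 in endoderm and 7.18 in hepatocytes. Its rank percentile was 6.2 in beta cells and 98.6 in endoderm. Nkx2-2, a repressor of alternative islet fates, had 0.229, 6.18 and 5.72 in the same order of cell types. Nkx6-1, which keeps beta cells from turning to other islet fates, had 0.327, 7.06 and 6.27. Pax6, a paired-box activator of hormone genes, had 0.265, 5.34 and 4.74. All 4 were thus in the lowest quartile of beta cells and in the top 5% of both other cell types. Transcripts annotated at the Pax6 locus also moved, and reads cannot be told apart where they overlap: Paupar had 0.142 in beta cells and 5.53 in endoderm, and Pax6os1 had 0.576 and 2.11.

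Mafa, an activator of the insulin genes, and Insm1, a zinc finger factor of endocrine differentiation, had the highest endoderm ratios of the list. Mafa had 0.684 in beta cells and 317 in endoderm, and Insm1 0.516 and 105. In hepatocytes their ratios were 6.73 and 9.11. Their rank differences, -51.3 and -66.6 points, were smaller than that of Pdx1, -92.4 points, since Mafa stood at the 48.6th percentile in beta cells. Foxa2, a pioneer factor of endoderm and its derivatives, had 0.183 in beta cells, 1.98 in endoderm and 0.676 in hepatocytes. Mlxipl, the glucose-responsive factor ChREBP, had 0.42 in beta cells and 0.42 in hepatocytes, against 1.69 in endoderm. Rfx6, a factor of islet differentiation, had 0.360 in beta cells and 0.923 in endoderm, and the zinc finger factors Myt1 and St18 had 0.47 each in beta cells against 1.25 and 1.11 in endoderm. The endoderm ratios of these 5 factors lay below those of Pdx1, Nkx2-2, Nkx6-1 and Pax6.

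Neurod1, Mnx1 and Isl1, also needed in beta cells, did not move. Neurod1, a bHLH activator of the insulin genes, kept a ratio of 1.65 in beta cells against 6.15 in endoderm, a rank difference of -14.8 points. The homeobox factor Mnx1 had 1.44 and 5.65, and the LIM factor Isl1 1.06 and 1.88. Neurod1 and Mnx1 passed the log2 threshold and missed the rank threshold. Hnf4a, a nuclear receptor gene of monogenic diabetes in people, lay near the median ratio, with 0.75 in beta cells and in endoderm. Rfx3, a regulator of cilia genes, had 0.438 and 0.577, Glis3, a factor of insulin transcription, 0.469 and 0.61, Etv1, an ETS factor, 0.61 and 0.617, and Esrrg, a nuclear receptor of oxidative metabolism, 0.787 and 0.801. After division by the recurring values, 8 of the 20 factors were lower.

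**Figure D3:**
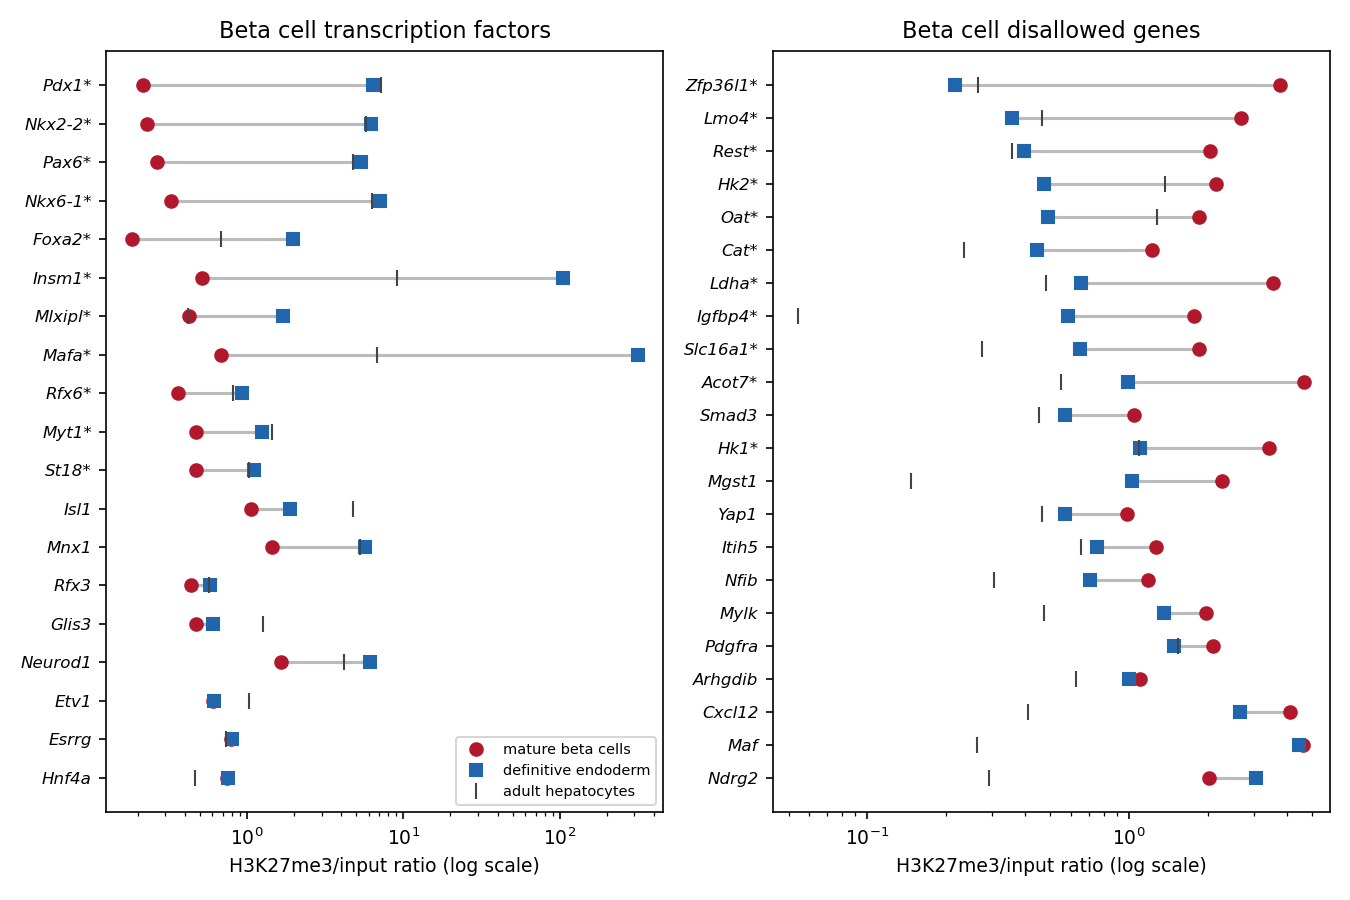
H3K27me3/input ratio (log scale) of beta cell transcription factors (left) and disallowed genes (right) in mature beta cells (circles), definitive endoderm (squares) and adult hepatocytes (ticks), sorted by the rank difference; an asterisk marks moved genes, and 1 transcription factor is not shown. Pdx1, Nkx2-2, Pax6 and Nkx6-1 lie at 0.217 to 0.327 in beta cells and at 5.34 to 7.06 in endoderm, while Ldha and Acot7 lie at 3.55 and 4.67 in beta cells and below 1 in endoderm.

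Factors of endocrine progenitors and of other islet cells did not move: 0 of 11 were higher or lower, where 11.7% and 12.7% of all genes were. In endoderm 10 of the 11 lay in the upper quartile, from which no gene can rise by 25 points. Neurog3, which starts the endocrine program in progenitors and is silent in mature islets, had ratios of 4.14 in beta cells, 7.86 in endoderm and 8.02 in hepatocytes. Fev, a serotonergic factor of endocrine precursors, had 3.85 and 9.18. Both stayed above the 95th percentile in beta cells and in endoderm. Pou3f4 (8.09 and 4.67), Irx1 (4.50 and 2.65) and Irx2 (4.20 and 5.15), factors of alpha cells, were likewise highly marked in beta cells and endoderm. Hhex, a liver and delta cell factor, had 4.37 in beta cells, 3.38 in endoderm and 0.101 in hepatocytes. Sox11, an SOXC factor of precursors, had 4.49 and 1.70, and its relative Sox4 had low ratios of 0.295 in beta cells and 0.303 in endoderm. Pax4, a factor of beta cell specification, had 1.25 in beta cells and 1.60 in endoderm.

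Islet hormone genes went in different directions. Ucn3, a peptide that marks mature mouse beta cells, was lower, with ratios of 0.246 in beta cells, 1.33 in endoderm and 1.12 in hepatocytes. Ghrl, encoding ghrelin, was lower as well, with 0.607 in beta cells and 1.71 in endoderm. Ins1, an insulin gene, was higher, with 1.56 in beta cells, 0.0471 in endoderm and 1.38 in hepatocytes. Its endoderm ratio lay at rank percentile 2.4, below the added constant of 0.0711, and rests on an unknown number of reads. Ins2, the other insulin gene, had 0.593 in beta cells and 0.381 in endoderm, and Iapp, the islet amyloid gene, 0.103 and 0.369, neither a move. Among hormone genes of the other islet cells, Sst, the delta cell hormone, had 4.47 against 1.53 in endoderm, and Gcg, the alpha cell hormone, 1.89 against 1.05. Ppy and Pyy, pancreatic polypeptide and peptide YY, had 1.52 and 2.42 in beta cells against 2.46 and 4.32 in endoderm. None of these 4 moved.

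Of 10 beta cell markers, 5 were lower in beta cells (Pdx1, Nkx6-1, Mafa, Ucn3 and Chga) and 1 was higher (Ins1). Among all genes 12.7% were lower and 11.7% higher. The ratios of the 10 markers summed to 4.90 in beta cells and 334 in endoderm, mostly from Mafa, and none was at 0. Of 9 markers of other islet cells, only Ghrl was lower; their ratios summed to 28.2 in beta cells and 32.4 in endoderm. Among definitive endoderm markers Foxa2 alone moved, 1 of 8. Their ratios summed to 18.3 in beta cells and 82.25 in endoderm, mostly from Foxa1. In the endoderm column 6 of the 8 lay in the upper quartile, and in beta cells 5. The summed ratios of markers of endothelium were 7.03 in beta cells and 5.07 in endoderm and those of blood and immune cells 8.85 and 6.24, and 0 of 5 and 1 of 5 moved. Fibroblast and stellate markers summed to 7.52 and 6.13 and mesoderm markers to 20.1 and 18.7, with 0 of 5 moved in each. Acinar markers summed to 18.3 in beta cells and 150 in endoderm, mostly from Ptf1a, with 2 of 8 higher, and duct markers to 9.61 and 5.51, with 1 of 6 higher and 1 lower. Groups of 5 to 10 markers, and sums led by single genes, do not settle the identity of the sorted cells. The part of other cells in the results was not tested.

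Genes that couple glucose and other stimuli to insulin release carried less of the mark in beta cells: 14 of 27 were lower, 0 were higher, and the median difference was -1.22 log2 units. Among all genes 12.7% were lower and 11.7% higher. In endoderm 13 of the 27 lay in the upper quartile, where 33.1% of all genes were lower and none could be higher. The ATP-sensitive potassium channel, closed by ATP from glucose metabolism, moved in both subunits. Its pore gene Kcnj11 had 0.413 in beta cells, 3.31 in endoderm and 3.35 in hepatocytes, and its sulfonylurea receptor gene Abcc8 had 0.320, 1.41 and 1.62. Kcnk16, an islet potassium channel gene, was lower as well, with 0.296 in beta cells and 1.77 in endoderm. Gjd2, the connexin that couples beta cells electrically, had 0.532 and 4.11. The calcium channel genes Cacna1c (0.642 and 1.03) and Cacna1d (0.551 and 0.787) did not move.

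Of the receptors and cyclic AMP genes, 7 of 12 were lower. Adra2a, the adrenergic receptor that inhibits insulin release, had 0.230 in beta cells, 7.45 in endoderm and 3.57 in hepatocytes, the largest rank difference of the list at -92.3 points. Sstr3, a somatostatin receptor, had 0.284 in beta cells and 2.62 in endoderm. The fatty acid receptor Ffar1 had 0.507 and 3.58. The incretin receptors Gipr (0.314 and 1.59) and Glp1r (0.370 and 1.11), the prolactin receptor Prlr (0.344 and 0.913) and the glucagon receptor Gcgr (0.785 and 2.56) were lower too. Gcgr, Prlr and Ffar1 had hepatocyte ratios of 0.457, 0.317 and 0.60, while Gipr and Glp1r had 2.27 and 1.51 there. The glucose transporter gene Slc2a2 (0.46 and 0.529) and G6pc2, an islet glucose phosphatase (0.453 and 0.46), had ratios below the median in both cell types and did not move. Slc30a8, the granule zinc transporter, was lower, with 0.422 in beta cells and 1.08 in endoderm.

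Genes for the contents and processing of secretory granules carried less of the mark in beta cells: 11 of 15 were lower and 0 higher, and 10 of 14 without X-linked Pcsk1n. Their median log2 difference was -1.40. Among all genes 12.7% were lower and 11.7% higher. The upper quartile of endoderm held 5 of the 15. Vgf, a granin-like secreted protein, had 0.566 in beta cells, 7.18 in endoderm and 4.88 in hepatocytes. The granins, acidic proteins that pack granules, were lower for Chga (0.257 in beta cells, 0.796 in endoderm, 2.67 in hepatocytes), Chgb (0.329, 1.74 and 2.47), Scg2 (0.449, 1.10 and 0.892) and Scg5 (0.459, 1.19 and 1.06). Scg3 (0.396 in beta cells, 0.841 in endoderm) passed the rank threshold and missed the log2 threshold. The prohormone convertases that cut proinsulin were lower, with 0.319 in beta cells against 1.16 in endoderm for Pcsk1, and 0.347 against 1.08 for Pcsk2. Cpe, the carboxypeptidase that trims the cut ends, had 0.414 against 0.937. Pcsk1n, an inhibitor of the convertase PCSK1, had 0.278 against 3.79. Resp18, an endocrine granule protein, had 0.228 against 2.73, and Ptprn, the granule autoantigen IA-2, had 0.372 against 2.35. Pam, the amidating enzyme, had 0.375 against 0.518 and did not move, nor did Ptprn2 (0.494 against 1.00) or Ica1 (0.496 against 0.691). No member was above the upper quartile in beta cells. After division by the recurring values 8 of the 15 were lower.

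Exocytosis genes, which dock and fuse granules in islets and synaptic vesicles in neurons, were lower at 12 of 26 and higher at 0, with a median of -0.96. All genes were lower at 12.7% and higher at 11.7%. Without Syn1, Syp and Sytl4 on the X chromosome it was 9 of 23, and after division by the recurring values 7 of 26. The upper quartile of endoderm held 11 of the 26, and 33.1% of all genes there were lower. Cplx2, a complexin that clamps fusion, had 0.217 in beta cells and 1.69 in endoderm. Syt7, a calcium sensor of insulin release, had 0.372 and 1.96, and Syt5 0.269 and 0.845. Unc13a, a priming factor, had 0.482 and 2.68. The fusion gene Snap25 (0.314 and 0.884) was lower, while Vamp2 (0.153 and 0.339) and Stx1a (0.736 and 0.483) did not move. Rab3a, a granule GTPase, had 0.157 in beta cells, 0.656 in endoderm and 0.154 in hepatocytes. In the whole synaptotagmin family, 6 of 22 genes were lower and 0 higher. Sytl1, a synaptotagmin-like RAB27 effector, differed most, with 0.224 in beta cells and 2.21 in endoderm.

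Genes of neuronal effector function, several of them also expressed in endocrine cells, divided: 10 of 30 were lower and 0 higher, and 9 of 29 without X-linked Dcx. All genes were lower at 12.7% and higher at 11.7%. The upper quartile of endoderm held 20 of the 30, and 33.1% of all genes there were lower. Celf3, a neural RNA-binding protein, had 0.234 in beta cells, 1.94 in endoderm and 2.26 in hepatocytes. Tubb3, a neuronal tubulin, had 0.35 in beta cells and 2.51 in endoderm, and Th, which makes the precursor of dopamine, 0.35 and 1.96. Ina, a neurofilament-like protein, had 0.499 and 2.90. The transporters that fill vesicles with glutamate and GABA kept high ratios: Slc17a7 had 4.56 in beta cells and 6.53 in endoderm, and Slc32a1 6.23 and 8.41. Gad1, a GABA-making enzyme, was lower with 1.13 and 3.77, while Gad2, the form known as an islet autoantigen, had 1.67 and 1.88.

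Disallowed genes, kept silent in beta cells although most tissues express them, carried more of the mark there. Of 22 genes, 11 were higher and 0 lower, where 11.7% and 12.7% of all genes were, and the median difference was 1.21 log2 units. Their median ratios were 2.03 in beta cells, 0.68 in endoderm and 0.46 in hepatocytes. Among enzymes and carriers 7 of 8 were higher. Ldha, which turns pyruvate into lactate, had 3.55 in beta cells, 0.653 in endoderm and 0.482 in hepatocytes. Slc16a1, a carrier that would let blood lactate and pyruvate into beta cells, had 1.84, 0.650 and 0.273. The low-Km hexokinases were higher too, Hk1 with 3.43 in beta cells against 1.10 in endoderm and Hk2 with 2.14 against 0.472. Acot7, an acyl-CoA thioesterase, had 4.67 against 0.985, Oat, ornithine aminotransferase, 1.84 against 0.489, and Cat, catalase, 1.22 against 0.444. Mgst1, a microsomal glutathione transferase, had 2.27 against 1.02 and missed the rank threshold, with a difference of 24.97 points.

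Regulatory disallowed genes were divided, with 4 of 14 higher. Zfp36l1, an mRNA decay factor, had 3.76 in beta cells, 0.216 in endoderm and 0.264 in hepatocytes, the largest rank difference of the list at 90.0 points. Lmo4, a LIM-only cofactor, had 2.67 in beta cells and 0.355 in endoderm. Rest, the repressor of neuronal genes, had 2.03 and 0.395, and Igfbp4, a secreted binder of insulin-like growth factors, 1.77 and 0.586. Others were already marked in endoderm and did not move: Maf had 4.63 in beta cells and 4.45 in endoderm, Cxcl12, a chemokine, 4.11 and 2.65, and Ndrg2, a stress-response gene, 2.02 and 3.04. Their hepatocyte ratios were low, at 0.26, 0.41 and 0.29. Yap1, the Hippo pathway coactivator, had 0.978 in beta cells and 0.57 in endoderm, and Smad3, the TGF-beta effector, 1.04 and 0.57. Pdgfra (2.09 and 1.48), Mylk (1.96 and 1.36), Itih5 (1.27 and 0.751), Nfib (1.18 and 0.709) and Arhgdib (1.10 and 0.994) did not move either.

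**Figure D4:**
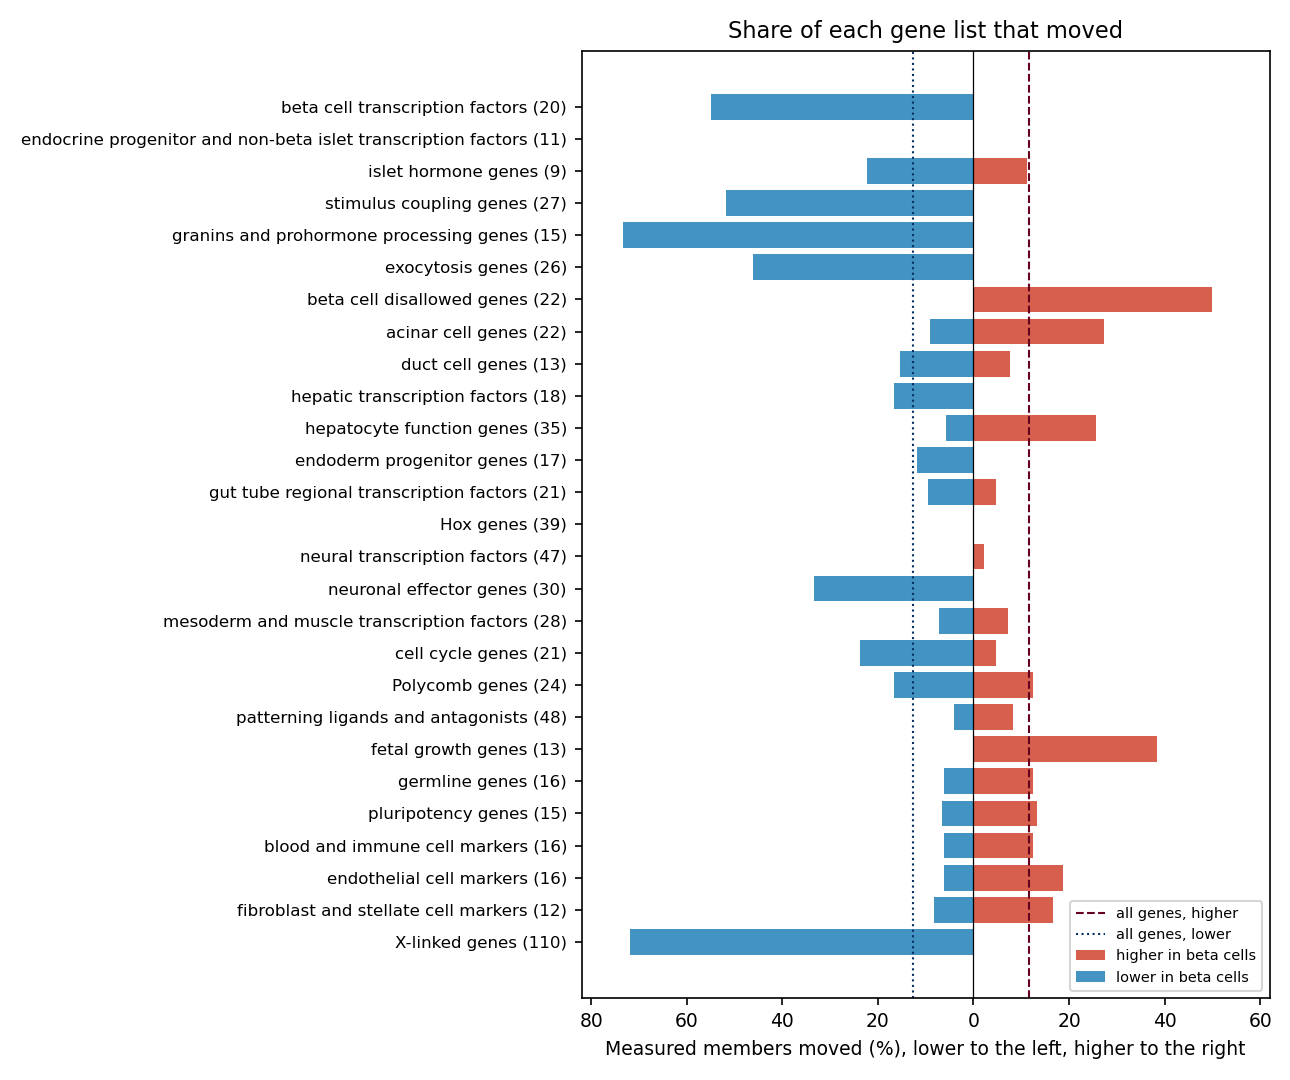
Share of the measured members of each gene list that moved (horizontal axis, percent), lower in beta cells to the left and higher to the right, with the number of members in parentheses. Dashed and dotted lines mark the shares of all genes, 11.7% higher and 12.7% lower. Granins and processing genes and X-linked genes reach furthest to the left, and disallowed and fetal growth genes furthest to the right.

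Of 35 hepatocyte function genes, 9 were higher in beta cells, 25.7% against 11.7% of all genes, and 2 were lower, 5.71% against 12.7%. Cyp8b1, a bile acid enzyme, had 7.37 in beta cells, 0.396 in endoderm and 0.305 in hepatocytes. Ahsg, the plasma protein fetuin-A, had 2.81, 0.315 and 0.204. Pck1, the gluconeogenic enzyme, had 2.17, 0.477 and 0.137, and Arg1, of the urea cycle, 0.916, 0.284 and 0.105. Tat, of tyrosine breakdown, and Hpx, a heme-binding protein, were lower, with 0.488 and 0.485 in beta cells against 1.19 and 1.15 in endoderm. Of 18 hepatic transcription factors, 0 were higher and 3 lower, 16.7%, near the share of all genes. Cebpb, an acute-phase factor, had 0.904 in beta cells and 140 in endoderm, Prox1, a homeobox factor shared by liver and pancreas, 0.373 and 1.21, and Foxa3, a forkhead factor, 0.429 and 1.15. Cebpa, of liver metabolism, stayed high with 3.76 and 11.3, against 0.131 in hepatocytes. Onecut1, of early liver and pancreas, had 2.63 and 2.70, and Nr0b2, a repressor of bile acid synthesis, 1.83 and 0.943.

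Of 22 acinar genes, mostly for digestive enzymes, 6 were higher, 27.3% against 11.7% of all genes. Only 2 were lower, 9.09% against 12.7%. Ctrb1, a chymotrypsinogen, had 2.81 in beta cells and 0.460 in endoderm, and Pnlip, the pancreatic lipase, 1.45 and 0.370. The trypsinogens Try4 and Try5 had 1.45 and 1.53 in beta cells against 0.230 and 0.315 in endoderm, and reads of these near-identical genes may not be separable. Ctrl, a chymotrypsin-like enzyme, had 0.639 against 0.117. The lower genes were Cela3b, an elastase, with 0.327 in beta cells against 1.15 in endoderm, and Clps, the lipase cofactor, with 0.369 against 1.30. The acinar regulator Ptf1a stayed in the upper tail, at 3.67 and 139, rank percentiles 96.1 and 99.8. Its partner Rbpjl had 2.78 and 4.28. Among duct genes, Sox9, the factor of ducts and progenitors, was higher, with 6.74 in beta cells, 1.15 in endoderm and 3.34 in hepatocytes. Krt19, a ductal keratin, was lower with 0.390 and 2.00, and Muc1, a mucin of the apical surface, with 0.398 and 2.23. The other 10 of 13 duct genes did not move. Their shares, 7.69% higher and 15.4% lower, were near those of all genes.

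Of 13 fetal growth genes, 5 were higher, 38.5% against 11.7% of all genes, and 0 lower, where 12.7% of all genes were. H19, an imprinted RNA, had 3.08 in beta cells, 0.594 in endoderm and 3.20 in hepatocytes. Mycn, a growth-promoting MYC factor, had 3.01 in beta cells and 0.659 in endoderm, and the RNA-binding genes Igf2bp1 and Igf2bp3 had 2.54 and 1.10 against 0.509 and 0.467. Hmga2, a chromatin protein of fetal cells, had 2.17 against 0.50. The imprinted growth factor Igf2, next to H19, was high in both cell types, with 3.25 and 3.64, and Dlk1, a Notch-like imprinted gene, had 2.31 and 3.92. Lin28b (1.24 and 1.00), Lin28a (0.784 and 0.47), Hmga1 (0.47 and 0.423) and Igf2bp2 (0.578 and 0.486) did not move.

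Among regulators of other lineages, Hox genes and most neural factors stayed highly marked, while most gut tube, mesoderm and muscle factors did not move. None of 39 Hox genes, which pattern the body axis, moved in beta cells against endoderm, and all 39 were in the upper quartile of both columns. Hox rank differences lay between -2.80 and 5.2 points, the highest at Hoxa2, which had ratios of 8.42 in beta cells and 2.86 in endoderm. Of 47 neural transcription factors, 46 did not move, and 43 in beta cells and 42 in endoderm were among the top 5%. The exception was Neurod6, a bHLH factor of cortical neurons, with 3.07 in beta cells and 0.825 in endoderm. Atoh1, a proneural factor, had 7.50 and 208, and Olig1, a glial factor, 5.85 and 181, with rank differences of -0.8 and -1.5 points. For these genes a wide gap in ratio went with nearly the same rank. Gut tube regional factors did not move at 18 of 21, with 4.76% higher and 9.52% lower, against 11.7% and 12.7% of all genes. Cdx2 and Cdx1, of intestine, had 5.82 and 2.53 in beta cells against 4.40 and 2.22 in endoderm. Hnf4g, an intestinal relative of Hnf4a, was lower with 0.395 against 1.11, and so was X-linked Cdx4 with 0.553 against 3.37. Mesoderm and muscle factors moved at 4 of 28, with 7.14% higher and 7.14% lower, both below the shares of all genes. The muscle factors Myf5 and Myog were higher, with 4.27 and 1.13 in beta cells against 0.228 and 0.347 in endoderm, and Mesp2 and Msgn1, of the forming somites, were lower, with 0.781 and 0.215 against 2.77 and 0.626.

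Among 17 genes of endoderm progenitors, Foxa2 and Foxa3 were lower, 11.8% against 12.7% of all genes, and none was higher. Sox17, which specifies endoderm, had 4.16 in beta cells, 1.42 in endoderm and 7.05 in hepatocytes, a rank difference of 17.8 points. Foxa1, the relative of Foxa2, stayed in the upper tail of beta cells with 6.35, against 72.6 in endoderm. The 3 forkhead genes thus had different ratios in beta cells, 0.183 for Foxa2, 0.429 for Foxa3 and 6.35 for Foxa1. Gata4 and Gata6, zinc finger factors of endoderm and pancreas, had 1.97 and 0.763 in beta cells against 1.30 and 1.05 in endoderm. Of 48 patterning ligands and antagonists, 4 were higher and 2 lower, 8.33% and 4.17%, fewer than among all genes in both directions. Dkk1, a WNT antagonist, was higher with 2.94 against 0.296, and Fgf5, a fibroblast growth factor, with 2.80 against 0.545. Wnt4, a WNT ligand known from islets, was lower with 0.484 against 2.38, and Sfrp5, a secreted WNT antagonist, with 0.612 against 4.80.

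Germ cell, pluripotency and marker lists moved about as often as all genes, of which 11.7% were higher and 12.7% lower. Among germline genes, Ddx4 and Spo11 were higher and Sycp2 lower, of 16, and among pluripotency genes Nanog and Zfp42 were higher and Klf5 lower, of 15. Nanog, a factor of embryonic stem cells, had 1.67 in beta cells and 0.486 in endoderm. Of 16 blood and immune markers, 2 were higher and 1 lower, of 16 endothelial markers 3 and 1, and of 12 fibroblast and stellate markers 2 and 1.

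Of cell cycle genes, 1 of 7 inhibitors was higher and 3 were lower. Of 14 cyclins, kinases and proliferation genes 0 were higher and 2 lower, 14.3%, near the share of all genes. Among all genes 11.7% were higher and 12.7% lower. Cdkn2b, an inhibitor of CDK4 and CDK6, was lower, with 0.193 in beta cells, 3.00 in endoderm and 4.48 in hepatocytes. Its neighbour Cdkn2a, whose products p16 and ARF restrain beta cell division with age, did not move, with 5.00 in beta cells, 6.20 in endoderm and 5.75 in hepatocytes. Cdkn2c (0.368 in beta cells, 3.09 in endoderm) and Cdkn2d (0.333 and 0.883) were lower, and Cdkn1b, encoding p27, was higher (1.10 and 0.410). Cdkn1c, the imprinted inhibitor p57, had 3.99 and 6.33, and Cdkn1a, encoding p21, 1.06 and 1.60. Ccnd2 and Cdk4, the cyclin and kinase that drive beta cell division in mice, were lower, with 0.336 and 0.355 against 1.19 and 1.55. Proliferation genes such as Mki67 (0.544 and 0.587) and Top2a (0.674 and 0.551) had low ratios in both.

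Polycomb genes moved at shares near those of all genes, 12.5% higher and 16.7% lower of 24. Among 9 genes of Polycomb repressive complex 2 (PRC2) 0 moved; Ezh2 had 0.456 in beta cells and 0.514 in endoderm, Suz12 0.54 in both, and Eed, the subunit that binds the mark, 0.912 and 0.429, which passed the rank threshold and missed the log2 threshold. Of 13 genes of complex 1 (PRC1), 3 were higher and 4 lower; the difference between the complexes was not tested. Bmi1, which represses the Cdkn2a locus, was lower, with 0.590 in beta cells, 2.86 in endoderm and 1.43 in hepatocytes. The chromodomain subunit genes Cbx8 and Cbx6 were lower too, with 1.04 and 0.405 in beta cells against 4.02 and 1.10 in endoderm. Cbx2 (1.02 and 0.341), Pcgf1 (1.74 and 0.361) and Pcgf2 (0.658 and 0.261) were higher. The demethylase genes Kdm6a, X-linked, and Kdm6b had 0.478 and 0.403 in beta cells against 1.02 and 0.385 in endoderm. After division by the recurring values the whole list had 5 higher and 3 lower, in place of 3 and 4.

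Neighbouring genes moved together in places. In the annotation's gene order, 35 runs of at least 5 consecutive genes moved in 1 direction, 26 lower and 9 higher. Of the lower runs 24 lie in the X-linked stretch; the others are the protocadherin run and the 6 genes Dnal4, Npcd, Nptxr, Cbx6, D730005E14Rik and Apobec3, whose median ratios were 0.397 in beta cells and 1.51 in endoderm. Genes of 5 olfactory receptor groups, a bitter taste receptor group and the Cd209 lectin group formed 7 of the 9 higher runs. The longest run was 20 of the 22 genes of the Pcdhg cluster, which encodes gamma protocadherins, adhesion proteins that give neurons their surface identity. Their ratios were 0.53 to 0.79 in beta cells and 1.23 to 3.23 in endoderm, and the cluster median in hepatocytes was 2.74. Pcdhgc4 (0.669 and 0.931) and Pcdhgc5 (0.604 and 0.540), at the end of the cluster, did not move. The 14 genes of the Pcdha cluster lay between 1.48 and 1.63 in beta cells and between 1.53 and 1.87 in endoderm, with 0 moved, and 3 of 22 Pcdhb genes moved, Pcdhb14 and Pcdhb22 lower and Pcdhb16 higher. Alpha and gamma isoforms each share their last exons, and the region measured per gene is not known, so the genes of a cluster may share reads and are not taken as separate observations. After division by the recurring values, 19 Pcdhg genes were lower.

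**Figure D5:**
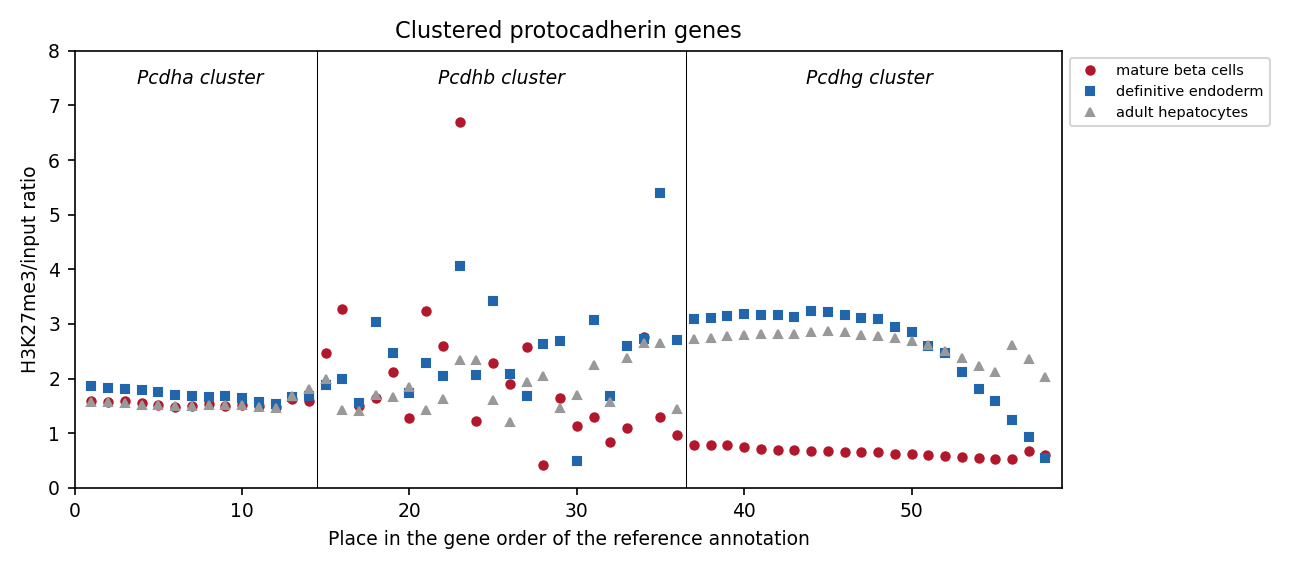
H3K27me3/input ratio (vertical axis) of the 58 clustered protocadherin genes in annotation order (horizontal axis) in mature beta cells (circles), definitive endoderm (squares) and adult hepatocytes (triangles). Beta cell ratios of the Pcdhg cluster run from 0.53 to 0.79, below most endoderm values there, while the Pcdha values of all 3 cell types lie close together.

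Leaving out gene models, olfactory and vomeronasal receptors and keratin-associated genes, some of which lay further out, and taking only genes in the highest quartile of the cell type where they were higher, the widest lower rank difference was that of Lrrc10b, a leucine-rich repeat gene, with 0.12 in beta cells and 12.5 in endoderm. Mt1, a metal-binding metallothionein, had 0.141 and 10.9. Next came Spanxn4 (0.0247 and 4.39), a sperm protein gene, and C2cd4a, a gene linked to islet function, with 0.0968 in beta cells, 6.13 in endoderm and 0.715 in hepatocytes. Cldn3, an epithelial tight junction claudin, had 0.126, 5.35 and 0.434. Rnf113a1, F8a and H2bfm, which lie in the X-linked stretch, had 0.0712, 0.0915 and 0.0282 in beta cells against 4.82, 5.12 and 3.69 in endoderm. By the same rule the genes furthest on the higher side were Rprl1, an RNA of the RNase P family, with 9.95 in beta cells and 0.0475 in endoderm, the chemokine gene Ccl12 with 5.55 and 0.0407, and Ackr1, a chemokine-binding receptor of red cells and veins, with 5.49 and 0.0572. Cypt9 and Cypt10 have identical values, 4.02 and 0.0242, and cannot be separated; their relative Cypt4 had 3.97 and 0.0298. Bcl2a1c, a survival gene of blood cells, had 6.35 and 0.162, Fpr-rs4, a formyl peptide receptor, 8.15 and 0.190, and Has2os, antisense to a hyaluronan synthase gene, 6.22 and 0.190. The taste receptor genes Tas2r103 and Tas2r110 stood at opposite ends, with 0.0233 and 3.81 in beta cells against 3.46 and 0.152 in endoderm.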

How the data were processed

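The deposited table holds ratios of H3K27me3 ChIP to input that the authors quantile-normalized across the 3 cell types, per the file headers and the table's title, as 1 pooled ratio per gene and cell type. The submitters' processing notes name Bowtie2 2.1.0, bedtools and the mm9 build. Not given in the sources used here are the region measured per gene, any constant added, and how libraries were pooled. Some beta cell input labels spell the mark differently from the rest. With 1 value per cell type, no limma fit or other test was made and no interval is given; depth, and so counting precision, is unknown.

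From these ratios log2(ratio + 0.0711) was computed, with a pseudocount 10 times below the median, and rank percentiles were taken over all 24466 rows (Python 3.11.15, pandas 2.3.3, numpy 2.4.6). Calls needed 1 log2 unit and 25 rank points, and small RNA genes were left out. Members, 27 gene lists and 38 families were chosen with earlier results of these data known. The naming rule took the 10 highest and 10 lowest moved genes by rank (without gene models, olfactory and vomeronasal receptors and keratin-associated genes, and in the top quartile where higher), members of lists of up to 25 (in long lists up to 10), up to 3 per family, and the longest runs; not all of these are printed, and other members named were chosen after their values were seen. Some members of the lists are counted but not reported here by name. Of the listed genes, Spink3 and Tf were not found among the symbols. RefSeq (GRCm38.p6) matched 22128 genes by symbol and 935 by synonym, with 114 unmatched, and was used only for gene order and promoter sequence. Hepatocyte ratios are given as levels, since a comparison with them would share the endoderm column.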

Additional observations from a re-analysis of the deposited data

How the results depend on the processing

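Counts were recomputed with a pseudocount 10 times smaller or larger, among genes at or above the median ratio, with either threshold alone, with other thresholds, after division by the recurring values, and without several gene sets. Leaving out the stretch bounded by X-linked genes was chosen after seeing the data and gave 2683 higher and 2473 lower genes. All genes numbered 1110 higher and 1287 lower with the larger pseudocount, and 1453 and 1713 at a log2 threshold of 1.5. After division by the recurring values 1885 were lower. Lower stimulus coupling genes numbered 9 with the larger pseudocount. Lower granin and processing genes numbered 5 with the larger pseudocount, 6 at the log2 threshold of 1.5, and 6 of the 6 kept at or above the median ratio. Lower exocytosis genes numbered 5, 6 and 7 with the larger pseudocount, the log2 threshold of 1.5 and the division. The larger pseudocount, the stricter threshold and the shifted scale each lower these counts by construction. Lower beta cell factors (8 to 13 of 20) and higher disallowed genes (8 to 12 of 22) stayed within 1.5 times of the main count in the 13 alternatives. Of 637 other list counts, 534 stayed within 1.5 times and 103 did not. With runs of at least 4 genes there were 32 higher and 48 lower runs, and at a CpG cutoff of 0.75 the shares were 56.2% for beta cell factors and 36.8% for disallowed genes. No paired analysis was possible because each cell type has 1 pooled value and the columns carry no replicate number. The absence of replicates and depth limits all values: a ratio near the thresholds could fall on either side, and very high or low ratios of short or duplicated genes rest on an unknown number of reads.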

Other observations

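Several receptor and barrier gene families had more higher genes than the 11.7% of all genes. Of 1125 olfactory receptor genes, 473 were higher, 42.0%, and 145 lower than in endoderm, 12.9%, with median ratios of 1.22 in beta cells, 0.47 in endoderm and 1.10 in hepatocytes. Bitter taste receptors were higher at 17 of 35 and lower at 2, and small proline-rich and late cornified envelope genes, which build the skin barrier, at 13 and 2 of 37. Keratin-associated genes, of hair, were higher at 19 of 54 and lower at 7, and vomeronasal receptors at 92 and 57 of 337. Keratins did not share this, with 4 higher and 5 lower of 54, 7.41% and 9.26%. Claudins had 6 higher and 6 lower of 32, 18.75% in each direction, where 12.7% of all genes were lower. Without olfactory and vomeronasal receptors, 2139 genes were higher and 2732 lower in all. Members of these families are near copies of each other, and how reads shared between them were counted is not stated in the labels.

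Histocompatibility genes moved at shares near those of all genes, 4 of 43 higher and 6 lower. H2-K1, among the lower ones and a classical class I gene, had 0.398 in beta cells, 4.46 in endoderm and 0.569 in hepatocytes. The immunoproteasome subunits Psmb8 and Psmb9 had 0.580 and 0.426 in beta cells against 6.21 and 4.07 in endoderm. Of 45 collagen genes 3 were higher, 6.67%, and 1 lower, fewer than among all genes in both directions. Of the type IV collagens of the basement membrane, Col4a1 and Col4a2 had 1.58 and 1.88 in beta cells against 0.455 and 0.485 in endoderm, while X-linked Col4a6 was lower with 0.771 against 2.13. Of 42 semaphorin, ephrin and Eph receptor genes, which guide axons and cells, 9 were higher, 21.4% against 11.7% of all genes, and 4 lower, among the higher ones Epha4 with 1.86 against 0.433 and Efna4 with 2.26 against 0.324. Zfp zinc finger genes were lower at 57 of 368 and higher at 26, but after division by the recurring values at 31 and 46.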
